A study of Mus musculus with 24 samples.

Results

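The genes described here encode the constant parts of the mouse immunoglobulin heavy chains (Igha, Ighm, Ighd, Ighg1, Ighg2b, Ighg2c, Ighg3 and Ighe), the joining chain of polymeric antibodies (Jchain) and the receptor that carries those polymers through epithelial cells (Pigr). They were chosen by name, with earlier results of these data known, and are 10 of the 39056 genes counted. RNA was sequenced from cells of the ileum of C57BL/6 mice aged 9.0 to 10.3 weeks, sorted live into a CD45+ fraction of hematopoietic cells and a CD45- fraction that holds epithelium, endothelium and stroma. The cells came from lamina propria combined with part of the epithelial fraction, and Peyer's patches, where many B cells of the gut reside, had been removed. All mice carried loxP-flanked Il4ra alleles (Il4raflox/flox) and were either Hoil1+/+ or Hoil1-/-. Those without cre are called Il4ra f/f, and those with Vil1cre, which acts in intestinal epithelial cells, are called Il4ra dIEC. Il4ra encodes the receptor chain for IL-4 and IL-13, and Hoil1 is Rbck1, a subunit of the linear ubiquitin chain assembly complex. The Hoil1-/- mice are a hypomorphic model, which still makes a low amount of the N-terminal domain of HOIL1. There were 3 libraries for each of the 4 genotypes and 2 fractions, 24 in all. The replicate numbers used below only name the libraries, and no label says which libraries came from the same mouse.

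The intestinal mucosa is the main site of IgA production. Naive B cells carry IgM and IgD, made from the same transcription unit by alternative splicing, and class switching joins the rearranged variable region to a constant gene further along the locus, for which TGF-beta is the classical signal for IgA and IL-4 the classical signal for IgG1 and IgE in mice. Plasma cells then secrete the antibody in large amounts. IgA and IgM are joined into polymers by the J chain, bound by the polymeric immunoglobulin receptor on the basal side of epithelial cells and released at the luminal side as secretory antibody, while IgG and IgE are not carried by that receptor.

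The 8 heavy-chain constant genes lie on the minus strand of chromosome 12 (GRCm38, GENCODE M21), so that their order in the direction of transcription is Ighm (chr12:113418558-113422730), Ighd, Ighg3, Ighg1, Ighg2b, Ighg2c, Ighe and Igha (chr12:113254830-113260236). Jchain lies on chromosome 5 (chr5:88519809-88527891, minus strand) and Pigr on chromosome 1 (chr1:130826684-130852249, plus strand). The secreted and the membrane-bound form of a heavy chain share their first exons and end differently. The sequences below are the coding bases that only the secreted transcript has, read from that annotation and its genome, 5′ to 3′ on the coding strand, and they are shown because they separate the isotypes that are joined by the J chain from those that are not. Capitals mark the second-to-last codon before the stop where it encodes cysteine.
Igha (chr12:113258768-113258829): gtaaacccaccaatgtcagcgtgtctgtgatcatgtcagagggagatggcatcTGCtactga
Ighm (chr12:113420867-113420928): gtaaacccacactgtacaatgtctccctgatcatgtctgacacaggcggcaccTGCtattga
Ighd (chr12:113409578-113409645): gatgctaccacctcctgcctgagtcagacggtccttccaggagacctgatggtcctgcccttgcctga
Ighe (chr12:113271273-113271298): gtaacacctccctccatccctcctag
Igha and Ighm ended in a tail of 62 bases each, identical at 43 positions (69.4%) when aligned at the stop codon, and both carried the cysteine codon, through which the J chain is known to be linked. In Ighg1, Ighg2b, Ighg2c and Ighg3 the secreted form added the same 8 bases, gtaaatga, and neither these nor Ighd and Ighe had a cysteine codon at that place. No stretch of 50 exonic bases of Igha, Ighm, Ighd or Ighe occurred in another heavy-chain constant gene. In Ighg2c 5.49% of such stretches did, in Ighg2b 4.15%, in Ighg3 1.58% and in Ighg1 0.393%. No stretch of 100 bases of any of the 8 genes occurred in another. Reads with fewer than 100 bases in these exons could thus be split between the 4 IgG genes. That depends on counting options that are not given in the sources used here.

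Between 14938629 and 76807504 reads were assigned to genes in the CD45+ libraries and between 6028275 and 68345191 in the CD45- libraries. Levels are given as CPM, the count divided by the total of all counts in that library and scaled to a total of 1000000, and 3 counts, the smallest level treated as detectable, correspond to 0.0391 to 0.498 CPM. Rbck1 was at 54.0 to 169 CPM in the CD45+ cells of Hoil1+/+ mice and at 3.67 to 15.5 CPM in those of Hoil1-/- mice, and at 70.9 to 131 CPM and 0 to 8.71 CPM in CD45- cells. Ptprc, which encodes CD45, was at 180 to 845 CPM in CD45+ and at 0 to 16.3 CPM in CD45- libraries. Il4ra itself was at 42.0 to 157.6 CPM in CD45- cells of dIEC mice and at 61.2 to 186.8 CPM in those of f/f mice, so the counts gave no check of the deletion. The study left out 3 libraries as outliers in a principal component analysis, namely CD45+ Hoil1-/- Il4ra f/f replicate 1, CD45+ Hoil1-/- Il4ra dIEC replicate 3 and CD45- Hoil1-/- Il4ra f/f replicate 3. Values below are given for every library, tests are over the other 21 libraries, and values over all 24 are added where they differ. In bulk RNA, fewer cells of a type and less RNA per cell cannot be told apart.

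Igha, the constant gene of IgA, had more counts than any of the other 7 constant genes in every CD45+ library. It was at 114622, 59144 and 175136 CPM in Hoil1+/+ Il4ra f/f mice (replicates 1, 2 and 3), at 60379, 40517 and 83930 CPM in Hoil1+/+ Il4ra dIEC mice, at 40309 (left out by the study), 68371 and 172302 CPM in Hoil1-/- Il4ra f/f mice, and at 77066, 49789 and 96449 CPM (the last left out) in Hoil1-/- Il4ra dIEC mice. The highest library was thus 4.34 times the lowest, and every genotype overlapped every other. Together the 8 heavy-chain constant genes took 4.10% to 17.6% of all counts in a CD45+ library.

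Jchain was at 30218, 19701 and 27603 CPM in Hoil1+/+ Il4ra f/f, at 15045, 12702 and 14068 CPM in Hoil1+/+ Il4ra dIEC, at 13811 (left out), 23010 and 22040 CPM in Hoil1-/- Il4ra f/f and at 14811, 8823 and 27513 CPM (the last left out) in Hoil1-/- Il4ra dIEC CD45+ cells. There were 0.128 to 0.343 Jchain counts for each Igha count. Both the lowest and the highest of these ratios, the latter in the library left out by the study, were in Hoil1-/- Il4ra f/f mice.

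Ighm, the first constant gene of the locus, was at 400, 240 and 199 CPM in the CD45+ cells of Hoil1+/+ Il4ra f/f mice and at 488, 1195 and 3110 CPM in those of Hoil1+/+ Il4ra dIEC mice. In Hoil1-/- mice it was at 662 (left out), 759 and 321 CPM with Il4ra f/f and at 567, 616 and 676 CPM (the last left out) with Il4ra dIEC. The lowest 2 libraries were both of Hoil1+/+ Il4ra f/f mice, and the highest, Hoil1+/+ Il4ra dIEC replicate 3, was 15.6 times the lowest of all 12.

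Ighd, which marks B cells that have not switched, was far lower and varied more. It was at 4.05, 6.84 and 5.76 CPM in Hoil1+/+ Il4ra f/f and at 52.5, 190 and 125 CPM in Hoil1+/+ Il4ra dIEC mice. In Hoil1-/- mice it was at 0 (left out), 149 and 32.9 CPM with Il4ra f/f and at 93.8, 91.4 and 6.23 CPM (the last left out) with Il4ra dIEC. The 3 Hoil1+/+ Il4ra f/f libraries and both left-out libraries were thus at 0 to 6.84 CPM and the other 7 libraries at 32.9 to 190 CPM. Between 0 and 0.196 Ighd counts were found for each Ighm count.

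Of the IgG genes, Ighg2b was the most abundant, at 39.7 to 2064 CPM over the 12 CD45+ libraries (median 367 CPM). Ighg1, at 0 to 93.4 CPM (median 19.7 CPM), Ighg2c, the C57BL/6 form of the IgG2a gene, at 0 to 79.8 CPM (median 6.88 CPM), and Ighg3, at 1.39 to 514 CPM (median 10.6 CPM), had lower medians. Hoil1+/+ Il4ra dIEC replicate 3 had the highest Ighg2b, Ighg1 and Ighg3 of all libraries, as it had the highest Ighm, and the highest Ighg2c was in Hoil1+/+ Il4ra f/f replicate 1. In Hoil1-/- Il4ra f/f replicate 1, a library the study left out, Ighg1 and Ighg2c had no count. Ighe was found in only 2 of the 24 libraries, with 37 counts (0.482 CPM) in CD45+ cells of Hoil1+/+ Il4ra f/f replicate 2 and 166 counts (5.12 CPM) in those of Hoil1-/- Il4ra dIEC replicate 3, which the study left out, and was too sparse to be tested.

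**Figure D1:**
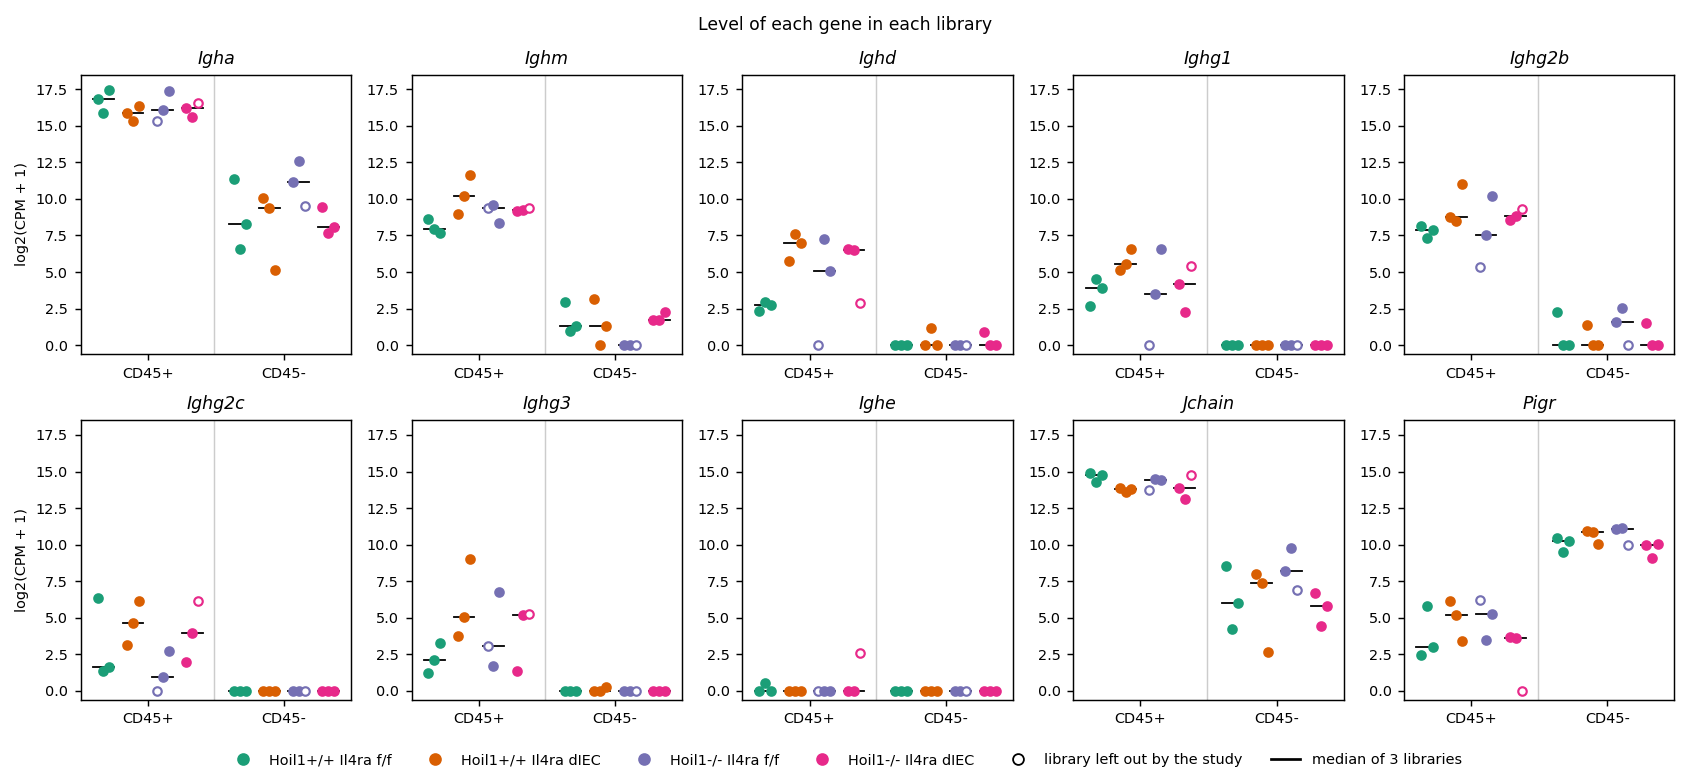
Level of each of the 10 genes, as log2(CPM + 1), in the 24 libraries by fraction and genotype, where each point is a library, open points are the 3 libraries left out by the study and bars are medians of 3 libraries. Igha and Jchain are high in all 12 CD45+ libraries and spread widely in the CD45- libraries, Pigr is high in all 12 CD45- libraries (553 to 2262 CPM), and Ighe is at 0 in all but 2 libraries.

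Divided by the length of its exons, Igha had the highest level in the CD45+ cells, with a median of 27256 CPM per kb over the 12 libraries. Jchain followed at 6902 and Ighm at 314 CPM per kb, and the ranges of these 3 genes did not overlap. Below them came Ighg2b at 137, Ighd at 22.5, Ighg1 at 7.60, Ighg2c at 5.19, Ighg3 at 4.22 and Pigr at 2.92 CPM per kb, and each of these overlapped its neighbor in the order. Ighm was above Ighg2b in 11 of 12 libraries, while Ighg1 was above Ighg2c in only 6.

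As a share of all heavy-chain constant counts, Igha made up 93.4% to 99.7% of every CD45+ library. Between 761860 and 9732219 heavy-chain counts lay behind each share, so that its 95% Wilson interval was narrow: the lowest share, 93.35% in Hoil1+/+ Il4ra dIEC replicate 3, had an interval from 93.33% to 93.37%, which covers counting error only. Ighm made up 0.114% to 3.46% and the 4 IgG genes together 0.115% to 3.05%. In Hoil1+/+ Il4ra f/f mice Igha was at 99.3%, 99.3% and 99.7%, and in Hoil1+/+ Il4ra dIEC mice at 98.3%, 95.6% and 93.4%. In Hoil1-/- mice it was at 98.3% (left out), 98.4% and 99.0% with Il4ra f/f and at 98.6%, 97.6% and 98.5% (the last left out) with Il4ra dIEC. The 3 libraries of Hoil1+/+ Il4ra f/f mice had the highest IgA shares of the 12, and the 2 lowest were both from Hoil1+/+ Il4ra dIEC mice.

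**Figure D2:**
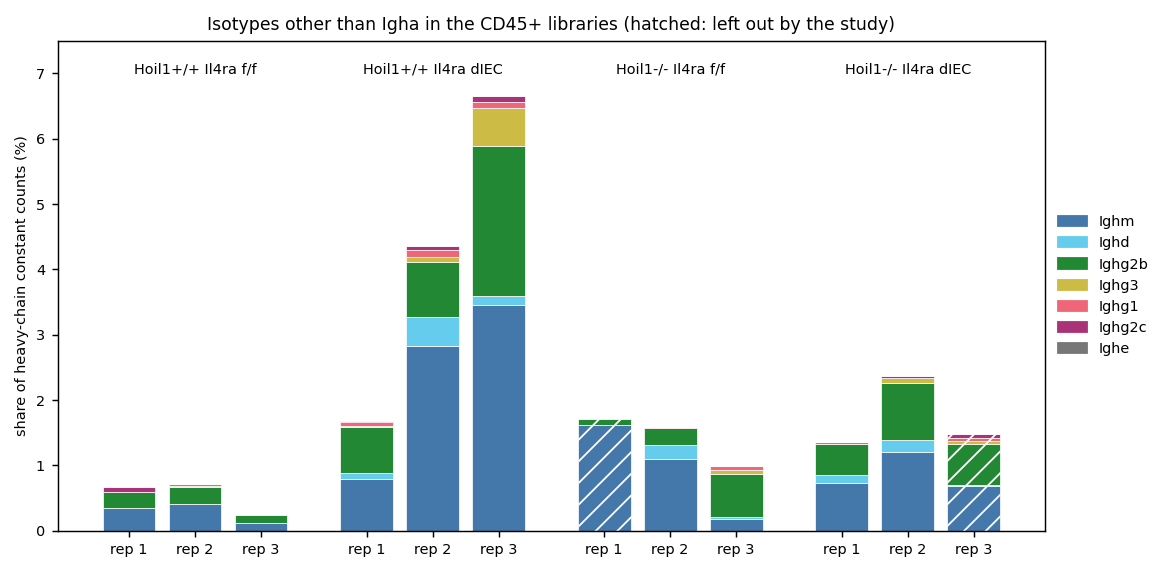
Share of all heavy-chain constant counts, in percent, of every isotype gene except Igha in the 12 CD45+ libraries, stacked by gene and grouped by genotype, where hatched bars are libraries left out by the study. Hoil1+/+ Il4ra dIEC replicates 2 and 3 have the tallest stacks, made mostly of Ighm (2.82% and 3.46%) and Ighg2b, and the 3 Hoil1+/+ Il4ra f/f libraries the shortest.

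The first comparison was between the fractions, over the 10 CD45+ and 11 CD45- libraries of the study's list. Of the 9 genes that passed the filter on low counts, all 9 passed the threshold of 0.05 on the adjusted p of edgeR's quasi-likelihood test, 8 of them higher in CD45+ cells and Pigr lower, where 49.6% of all 18778 genes tested were called (24.5% higher and 25.1% lower). A member that passed the filter only through its CD45+ counts had to differ, so this count is a description of the sort. Igha was at a mean of 90126 CPM in CD45+ and 1296 CPM in CD45- libraries, 69.6-fold higher, with a log2 fold change of 6.80 (SE 0.83, adjusted p = 4.51e-06 by edgeR). Jchain was 93.4-fold higher by its means (log2 fold change 7.04, SE 0.79), Ighm 320-fold and Ighg2b 444-fold. Ighg1 and Ighg2c had no count in any CD45- library. Their means in CD45+ cells were 146-fold and 90.1-fold above a set level of 3 counts in each CD45- library. Pigr, which epithelial cells transcribe, was 55.0-fold lower in CD45+ cells (log2 fold change −5.70, SE 0.53, adjusted p = 2.60e-07 by edgeR). CD45+ and CD45- libraries may come from the same mice, which the test could not take into account.

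The genes around these antibodies, in lists drawn up for the purpose, differed between the fractions too. Many passed the filter through their CD45+ counts (within CD45- cells only 6 of 13 B cell, 3 of 6 IgG1 and IgE switch and 4 of 7 T cell genes could be tested), so these counts too describe the sort. Of 19 genes of the plasma cell program, 18 were higher in CD45+ cells, among them Tnfrsf13b (TACI, a receptor for BAFF and APRIL) by 8.60 and Irf4 by 7.77 on the log2 scale. All 13 B cell genes, all 4 light chain constant genes, 6 of 6 genes for signals that direct switching to IgG1 and IgE (such as Il4 and Cd40lg) and 8 of 9 Fc receptor genes tested were also higher. Of 20 genes for IgA-inducing signals and gut homing, 11 were higher in CD45+ cells, among them Itgb7 (7.05) and Itga4 (3.80), which encode the homing integrin of gut lymphocytes, and 7 were lower. Of 12 genes of class switching and the germinal center that could be tested, 5 were higher and 2 lower, and of 11 known regulators of Pigr, 5 were higher and 3 lower, with the IL-17 receptor subunit Il17rc at −5.54. All 9 epithelial, 5 endothelial and 5 stromal genes were lower in CD45+ cells, and all 7 T cell and 7 myeloid genes higher.

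The antibody transcripts of the CD45- libraries were fewer than those of the CD45+ libraries and were dominated by IgA. Igha was at 2600, 94.3 and 307 CPM in Hoil1+/+ Il4ra f/f, at 1052, 667 and 33.6 CPM in Hoil1+/+ Il4ra dIEC, at 2305, 6036 and 723 CPM (the last left out) in Hoil1-/- Il4ra f/f and at 694, 200 and 263 CPM in Hoil1-/- Il4ra dIEC mice. The highest library was 179.8 times the lowest, and both were far below the lowest CD45+ library. Jchain followed, at 374, 18.04 and 64.6 CPM, at 252, 168 and 5.38 CPM, at 292, 861 and 116 CPM, and at 104, 21.2 and 54.6 CPM in the same order of libraries. Igkc, the kappa light chain gene, had 0.634 to 1.72 counts for each Igha count in these libraries and 0.813 to 1.46 in the CD45+ libraries, and Jchain had 0.106 to 0.252 and 0.128 to 0.343. The proportions of these 3 transcripts thus overlapped between the fractions. The medians were 0.160 in CD45- and 0.256 in CD45+ libraries for Jchain per Igha, and 0.963 and 1.04 for Igkc per Igha.

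In the CD45- libraries the Igha share was 95.1% to 100%, and Ighm was found in 8 of 12 libraries, at up to 8.07 CPM. All 3 Hoil1-/- Il4ra f/f libraries, 2 of which had the highest and the third highest Igha levels, had no Ighm count. In the deepest of them, 0 of 182018 heavy-chain counts allowed a share of up to 0.00165%, and in the others up to 0.0108% and 0.0557%. These limits cover counting error only, since amplified reads are not independent molecules, and no count above 0 of a constant gene in these libraries was under 10. In the 8 libraries with Ighm counts its share was 0.258% to 4.27%, and in Hoil1+/+ Il4ra dIEC replicate 2, also without a count, it was at most 0.0555%. Ighd was found in 2 of the libraries, Ighg2b in 5 at up to 4.78 CPM, and Ighg3 in 1 at 0.219 CPM. Ighg1, Ighg2c and Ighe had no count in any of the 12.

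Marker genes were low in the same libraries. The 13 B cell genes summed to 3.91 to 86.1 CPM, against 310 to 1998 CPM in the CD45+ libraries, and 5 of them were under 1 CPM in every CD45- library. Among the plasma cell genes the ER genes are used by many cell types, so that the sum of the 19 was 1137 to 2517 CPM in CD45- and 2747 to 7129 CPM in CD45+ libraries. Of those more particular to the lineage, over the 11 libraries of the study's list, Tnfrsf17 (BCMA) was at 0 to 2.35 CPM, Mzb1 at 0 to 15.0 CPM and Irf4 at 0 to 6.78 CPM. In Hoil1-/- Il4ra f/f mice, where Igha was at 2305, 6036 and 723 CPM, Ptprc was at 10.7, 16.3 and 4.57 CPM, and at 0 to 3.22 CPM in the other 9. The part of residual CD45+ cells in the CD45- values was not tested.

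Pigr was at 1377, 713 and 1240 CPM in the CD45- cells of Hoil1+/+ Il4ra f/f, at 1976, 1891 and 1044 CPM in those of Hoil1+/+ Il4ra dIEC, at 2194, 2262 and 1012 CPM (the last left out) in Hoil1-/- Il4ra f/f and at 1024, 553 and 1076 CPM in Hoil1-/- Il4ra dIEC mice. Its highest value was 4.09 times its lowest. Epcam, which all epithelial cells of the gut carry, was at 195 to 1324 CPM in the same libraries, and there were 1.58 to 2.84 Pigr counts for each Epcam count, a span of 1.79 times. Per length of exons, Pigr (median 288 CPM per kb) and Igha (255 CPM per kb) were at similar levels in the CD45- cells, with Pigr above Igha in 7 of 12 libraries. In the CD45+ cells Pigr was at 0 to 72.6 CPM (median 11.8 CPM) and Epcam, over the 10 libraries of the study's list, at 7.56 to 62.3 CPM.

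**Figure D3:**
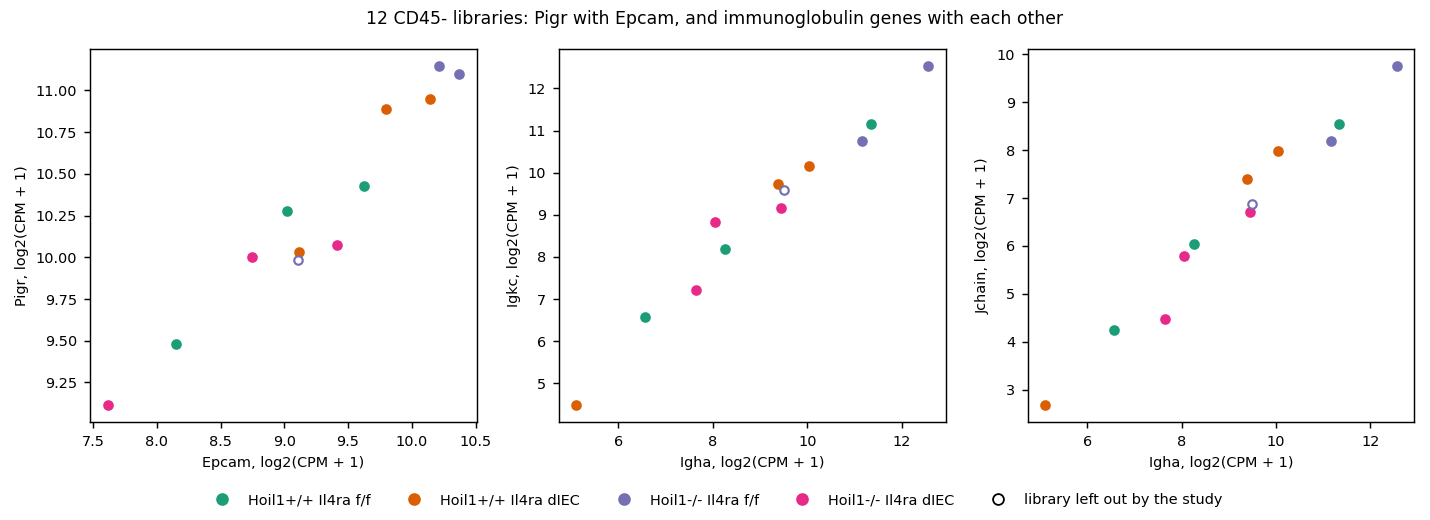
Levels of Pigr against Epcam, Igkc against Igha and Jchain against Igha in the 12 CD45- libraries, all as log2(CPM + 1), colored by genotype, where the open point is the library left out by the study. Libraries with more Epcam tend to have more Pigr, at 1.58 to 2.84 counts for each Epcam count, and those with more Igha, from 33.6 to 6036 CPM, tend to have more Igkc and Jchain.

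The second comparison asked whether loss of HOIL1 changed these genes, taken as the mean difference over both Il4ra genotypes. In CD45+ cells 0 of the 9 genes tested passed edgeR's quasi-likelihood test after adjustment, where 0.00587% of all 17029 genes did. At an unadjusted p under 0.05 there was 1, Ighd, where 5.85% of all genes were. Ighd had a log2 fold change of 1.67 (SE 0.38, adjusted p = 0.516 by the quasi-likelihood test of edgeR) and was at 32.9 to 149 CPM in the 4 libraries of Hoil1-/- mice and at 4.05 to 190 CPM in the 6 of Hoil1+/+ mice, so that the ranges overlapped. Among these libraries, those of Hoil1-/- mice lay above all Hoil1+/+ libraries with Il4ra f/f, and within the Hoil1+/+ range with Il4ra dIEC. Over all 12 libraries the log2 fold change of Ighd was 1.13 (SE 0.98). DESeq2 and edgeR's likelihood ratio test, which call 0.758% and 0.605% of all genes, each called Ighd and no other member. Igha differed by −0.05 (SE 0.50), Ighm by −0.41 (SE 0.49) and Jchain by −0.32 (SE 0.30). In CD45- cells 0 of the 6 genes tested passed (0.0182% of 16453 genes did), and 1, Ighm, had an unadjusted p under 0.05, against 5.28% of all genes. The log2 fold changes there were 0.64 (SE 0.93) for Igha, 0.26 (SE 0.93) for Jchain and 0.06 (SE 0.33) for Pigr, and for Ighm none is given, since all Hoil1-/- Il4ra f/f libraries were at 0. DESeq2 (1.05% of all genes) and the likelihood ratio test (0.821%) called 0 members.

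With both Il4ra genotypes pooled, the isotype shares did not differ detectably between Hoil1-/- and Hoil1+/+ mice. In CD45+ cells Igha was at 98.4% ± 0.586 (SD, n = 4) in Hoil1-/- and 97.6% ± 2.56 (SD, n = 6) in Hoil1+/+ mice (p = 0.595, two-sided exact permutation test), and without Hoil1+/+ Il4ra dIEC replicate 3 the difference went from 0.812 to −0.040 percentage points. The pooled test joins differences in opposite directions. With Il4ra f/f the mean Igha share was 98.7% in Hoil1-/- and 99.4% in Hoil1+/+ mice, and with Il4ra dIEC it was 98.1% and 95.8%. The share was not tested within each Il4ra genotype. The shares of Ighm (p = 0.510) and of the IgG genes (p = 0.781) did not pass the exact permutation test either, nor did any of the 3 shares in CD45- cells (p = 0.695, 0.649 and 0.716, exact permutation tests). Between the fractions, the IgG share was higher in CD45+ cells, at 0.826% ± 0.845 (SD, n = 10) against 0.122% ± 0.186 (SD, n = 11), with p = 0.000640 in a permutation test and 0.00768 when adjusted over the 12 share tests, although the ranges overlapped. In the CD45- library with the fewest heavy-chain counts, 0 of 1609 were of IgG genes, which allowed a share of up to 0.186% by counting error only. The fractions may come from the same mice, which this test too could not take into account.

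The third comparison was between mice that lack and mice that keep Il4ra in epithelial cells. In CD45+ cells, 0 of 9 genes passed edgeR's quasi-likelihood test after adjustment (0.00587% of all genes did), and 3 had an unadjusted p under 0.05, where 10.6% of all genes did. Jchain was at 8823 to 15045 CPM in the 5 dIEC and at 19701 to 30218 CPM in the 5 f/f libraries of the study's list, with a log2 fold change of −1.32 (SE 0.31, adjusted p = 0.226 by the quasi-likelihood test of edgeR). It was the only member whose groups did not overlap, and groups did not overlap in this direction in 0.147% of all genes and in either direction in 3.49%. With the 2 libraries that the study left out, the groups overlapped, since the dIEC library was at 27513 and the f/f library at 13811 CPM, and the log2 fold change was −0.80 (SE 0.40). Igha had a log2 fold change of −1.41 (SE 0.51, adjusted p = 0.410 by edgeR), with 40517 to 83930 CPM in dIEC and 59144 to 175136 CPM in f/f libraries, and was at −0.81 without Hoil1-/- Il4ra f/f replicate 3. Ighd, the other of the 3, was at 1.94 (SE 0.40, adjusted p = 0.185 by edgeR), with 52.5 to 190 CPM in dIEC and 4.05 to 149 CPM in f/f libraries, and Ighm at 1.00 (SE 0.49), or 0.46 without Hoil1+/+ Il4ra dIEC replicate 3. DESeq2 and the likelihood ratio test, which call 1.95% and 1.18% of all genes, both called Ighd and Jchain. With library totals in place of TMM scaling, the median of all genes was at 0.32 instead of −0.01, Igha was at −0.92 (SE 0.37) and Jchain at −0.91 (SE 0.23), and no member named here changed its sign.

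**Figure D4:**
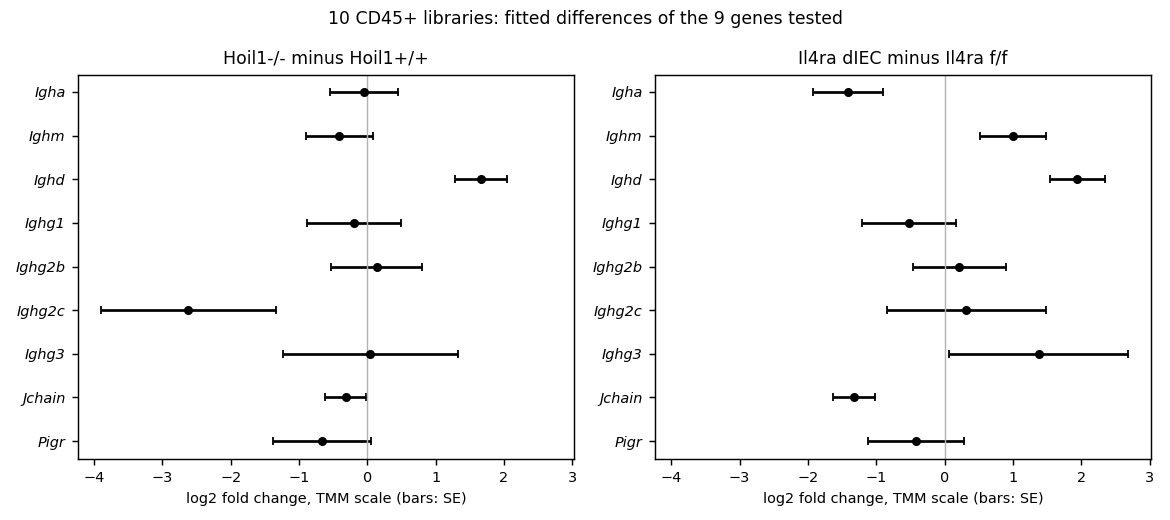
Fitted log2 fold changes in 10 CD45+ libraries of the 9 genes tested, for Hoil1-/- minus Hoil1+/+ and for Il4ra dIEC minus Il4ra f/f, with bars of 1 SE on the scale of edgeR with TMM. Ighd lies farthest to the right in both panels (1.67 and 1.94), Igha and Jchain lie to the left in the Il4ra panel (−1.41 and −1.32), and none passes after adjustment.

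The isotype shares gave the following values. Igha made up 96.7% ± 2.21 (SD, n = 5) of heavy-chain counts in the CD45+ cells of dIEC and 99.2% ± 0.490 (SD, n = 5) in those of f/f mice, a difference of −2.44 percentage points (p = 0.0159, two-sided exact permutation test, where 0.00794 is the smallest p possible). Ighm made up 1.80% ± 1.26 and 0.428% ± 0.390 (SD, n = 5 each, p = 0.0238, exact permutation test), and the IgG genes 1.29% ± 1.01 and 0.367% ± 0.243 (SD, n = 5 each, p = 0.0159, exact permutation test). Adjusted over the 12 share tests, these exact permutation p-values were 0.0635, 0.0714 and 0.0635, and the ranges overlapped in each case. Without Hoil1+/+ Il4ra dIEC replicate 3 the differences were −1.59, 0.959 and 0.478 percentage points. Without any 1 of the 3 Hoil1+/+ Il4ra f/f libraries the exact permutation p was 0.0556 for Igha and for IgG and 0.0714 to 0.0873 for Ighm, and it also missed 0.05 for IgG without Hoil1-/- Il4ra f/f replicate 2 (0.0556) and for Ighm without Hoil1-/- Il4ra f/f replicate 3 (0.0873). Over all 12 libraries the Ighm difference was 0.991 percentage points (p = 0.113, permutation test). Within Hoil1+/+ mice of the study's list, the mean Igha share was 95.8% in dIEC and 99.4% in f/f libraries (n = 3 each). Within Hoil1-/- mice it was 98.1% and 98.7% (n = 2 each). Ighm was at 2.36% and 0.288% in Hoil1+/+ and at 0.967% and 0.639% in Hoil1-/- mice, in the same order. IgG was at 1.64% and 0.256%, and at 0.748% and 0.533%. Each difference was thus larger in Hoil1+/+ mice, which was not tested.

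Marker genes of B cells and plasma cells gave the following values in the same libraries. The 13 B cell genes summed to 683 to 1998 CPM in the 5 dIEC and to 310 to 1093 CPM in the 5 f/f libraries of the study's list, and the left-out libraries were at 373 (dIEC) and 331 CPM (f/f). Of the 13, 0 passed edgeR's test after adjustment, 10 had an unadjusted p under 0.05, all with positive values, where 10.6% of all genes had one, and the median log2 fold change was 1.69, against −0.01 over all genes. Over all 12 libraries the count was 8 and the median 1.77. The 2 most abundant, Cd79a and Cd79b, which plasma cells also transcribe, were at −0.16 (SE 0.42) and −0.07 (SE 0.23). Of the 19 plasma cell genes 0 passed, 18 had negative values, 13 of them with an unadjusted p under 0.05, and the median was −0.92, with Txndc5 at −1.28 (SE 0.47) and Hsp90b1 at −0.51 (SE 0.35). They summed to 3332 to 5366 CPM in dIEC and to 3685 to 7129 CPM in f/f libraries, while the left-out libraries were at 6290 (dIEC) and 2747 CPM (f/f). Over all 12 libraries the median was −0.46, 17 were negative and 3 had an unadjusted p under 0.05. The 4 light chain constant genes, of which 0 passed, had a median of −1.29, with Igkc at −1.38 (SE 0.42). The part of the makeup of the sorted cells in the shares was not tested.

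**Figure D5:**
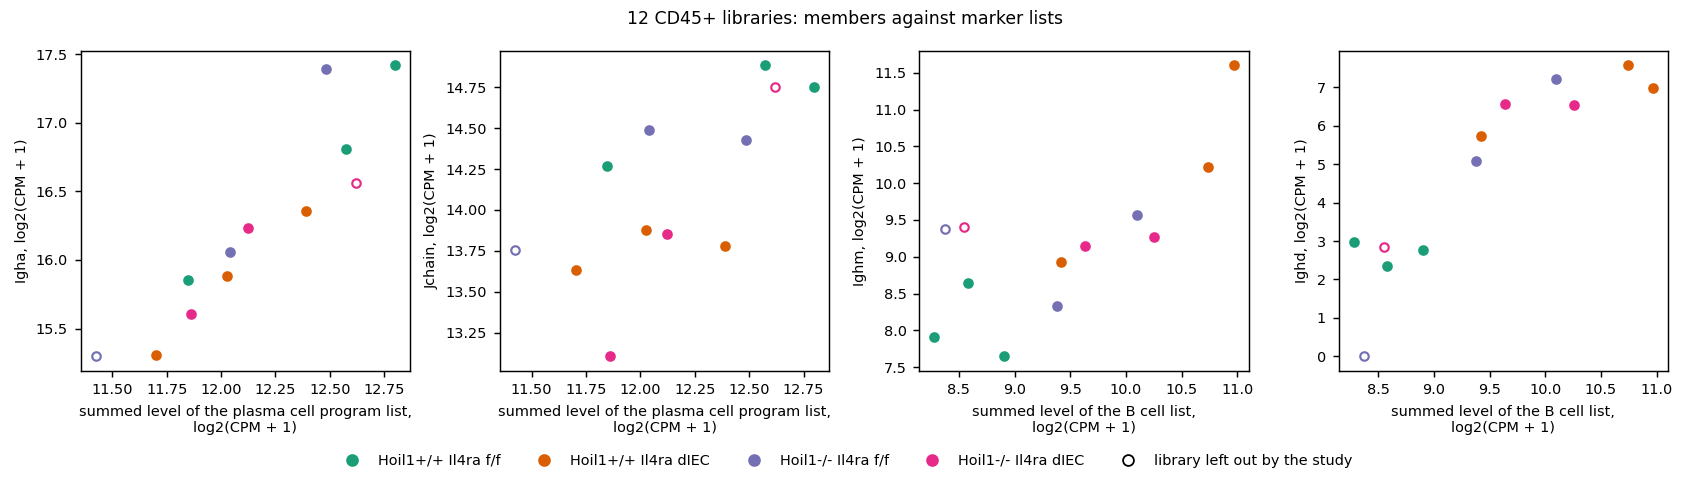
Igha and Jchain against the summed level of the 19 plasma cell genes, and Ighm and Ighd against that of the 13 B cell genes, in the 12 CD45+ libraries, all as log2(CPM + 1) and colored by genotype, with open points for left-out libraries. Libraries with a higher plasma cell sum tend to have more Igha, and Ighd is at 0 to 6.84 CPM in the 5 libraries with the lowest B cell sums, 310 to 478 CPM.

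The remaining pathway lists gave no gene past the threshold for Il4ra in CD45+ cells: 0 of 12 class switch and germinal center genes (median log2 fold change 0.36, with Il21r at 1.00, SE 0.36, and Bcl6 at 1.18, SE 0.22), 0 of 20 genes for IgA-inducing signals and gut homing (median −0.28, with Itgb7 at −0.25, SE 0.23), 0 of 6 genes for IgG1 and IgE switch signals (median 1.06), 0 of 9 Fc receptor genes (median −0.25) and 0 of 11 regulators of Pigr (median 0.34). For Hoil1 in CD45+ cells, 0 of 13 B cell genes (median 0.50), 0 of 19 plasma cell genes (median −0.20), 0 of 4 light chain genes (median 0.19), 0 of 12 class switch genes (median −0.10), 0 of 20 IgA-related genes (median −0.08), 0 of 6 IgG1 and IgE switch genes (median 1.14), 0 of 9 Fc receptor genes (median −0.09) and 0 of 11 regulators of Pigr (median −0.04) passed, against a median of −0.05 over all genes. Of the 13 B cell genes 11 had positive values. An unadjusted p under 0.05 was found for 5 of the 13, all positive, where 5.85% of all genes had one. Among the 6 IgG1 and IgE switch genes it was found for 3, all positive, and in each other list for 0 to 2. Over all 12 libraries the counts for B cell and for IgG1 and IgE switch genes were 0 and 1. For Il4ra, 2 of the 6 IgG1 and IgE switch genes had one, both positive, where 10.6% of all genes did.

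In CD45- cells the Il4ra comparison gave 0 members past the threshold of 6 tested (0.0% of all genes passed), with 1, Ighm, at an unadjusted p under 0.05, where 5.9% of all genes were. No log2 fold change is given for Ighm, since all Hoil1-/- Il4ra f/f libraries were at 0. Igha had a log2 fold change of −2.07 (SE 0.94, adjusted p = 0.808 by edgeR), Jchain of −1.64 (SE 0.93) and Pigr of −0.34 (SE 0.33). Without Hoil1+/+ Il4ra f/f replicate 1 Igha was at −0.81 and Jchain at −0.60. The dIEC and f/f libraries overlapped for each of the 3. DESeq2 and the likelihood ratio test, which call 0.936% and 0.869% of all genes, called 0 members.

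The interaction, the Hoil1 difference in dIEC minus that in f/f mice, was tested last. In CD45+ cells 0 of 9 members passed edgeR's quasi-likelihood test after adjustment (0.0% of all genes did), and 4 had an unadjusted p under 0.05, all lower, where 7.01% of all genes were. They were Ighm at −2.19 (SE 0.98, adjusted p = 0.701), Ighd at −4.15 (SE 0.80, adjusted p = 0.591), Ighg1 at −4.46 (SE 1.44, adjusted p = 0.694), all by edgeR, and Ighg3. Without Hoil1-/- Il4ra f/f replicate 3 Ighg1 was at −1.67, and without Hoil1+/+ Il4ra dIEC replicate 3 Ighm was at −1.12. For Ighd, within Hoil1+/+ mice it was at 4.05 to 6.84 CPM with Il4ra f/f and 52.5 to 190 CPM with Il4ra dIEC, while within Hoil1-/- mice the 2 libraries of each kind were at 32.9 to 149 and 91.4 to 93.8 CPM. DESeq2 called Ighd and Ighg1 (0.928% of all genes) and the likelihood ratio test Ighd (0.399%). Over all 12 libraries the value for Ighd was −4.04 (SE 2.01). The B cell genes had negative values in 13 of 13 (median −1.96, 0 passed), against a median of −0.11 over all genes.

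In CD45- cells 0 of 6 members passed for the interaction (0.0% of all genes), with 2 at an unadjusted p under 0.05, where 20.7% of all genes were. Pigr was at −2.43 (SE 0.66, adjusted p = 0.129 by edgeR), and without CD45- Hoil1+/+ Il4ra dIEC replicate 3 its adjusted p was 0.0295. DESeq2 and the likelihood ratio test called it, as they called 8.91% and 7.43% of all genes. The 9 epithelial genes were negative in 9 of 9, of which 0 passed and 9 had an unadjusted p under 0.05, with a median of −4.11 against 0.29 over all genes, and the 5 endothelial and 5 stromal genes were positive with medians of 1.89 and 2.82. The sum of the epithelial genes in the CD45- libraries ran from 1458 to 19463 CPM, and was highest in libraries with high Pigr, and its part in the value was not tested. Igha was at −3.20 (SE 1.87) and Jchain at −3.71 (SE 1.88), or −5.74 and −5.80 without Hoil1+/+ Il4ra f/f replicate 1.

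Among 9888 genes with a mean of at least 5 CPM outside the immunoglobulin loci, those whose log2(CPM + 1) followed Igha most closely over the 12 CD45+ libraries were Edem2 (Pearson's r = 0.97), Txndc5 (0.94), Capn5 (0.94), Derl3 (0.93) and Xbp1 (0.91). Edem2 and Derl3 take part in the degradation of misfolded proteins of the ER, Txndc5 is a disulfide isomerase and Xbp1 the transcription factor of the unfolded protein response and of plasma cells. Those most like Jchain were Ssr4 (0.92), Tnfrsf17 (0.91), Mzb1 (0.89), Sec11c (0.88) and Cope (0.88), and those most like Ighm were Cd24a (0.87), H2-DMb2 (0.87), Rpl8 (0.85), Sh3bp5 (0.85) and Nle1 (0.84). Igha and Jchain, both products of plasma cells, had r = 0.72 with each other, and Igha and Ighm r = −0.41. In the 12 CD45- libraries, among 11297 genes, Pigr was followed most closely by Myo5b (0.98), a motor of apical recycling, Ctss (0.98), Epcam (0.97), Fam234a (0.97) and Pklr (0.96). The points of each correlation share their library, its depth and its mix of cells, and the values are given as a description only.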

How the data were processed

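RNA of CD45+ and CD45- cells from 24 libraries was analysed. Libraries were made from poly-A RNA with strand selection. The authors used STAR to align cutadapt-trimmed reads to mm10 and featureCounts to assign them to ENSEMBL genes, and deposited the raw counts. Tool versions and counting options are not given in the sources used here. Of 39056 gene identifiers, 38872 matched GENCODE M21.

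Counts were tested with the quasi-likelihood test of edgeR 4.0.16 (R 4.3.3), with TMM scaling, filterByExpr and a mean for each genotype, over the 21 libraries of the study's list, within each fraction and between fractions, two-sided, with Benjamini-Hochberg adjustment over all genes tested and a threshold of 0.05. The SE is the log2 fold change over the square root of F. CPM used total counts. Shares were compared with exact permutation tests, or 100000 resamples between fractions, with Wilson intervals for single libraries. Where nothing says that libraries came from separate mice, p-values measure only the spread between these libraries.

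Alternatives were all 24 libraries, DESeq2 1.42.0, the likelihood ratio test, RLE size factors, no TMM factor, scaling without immunoglobulin genes, no filter, each library left out, log ratios and permutation within the other factor for shares, and, added after the data were seen, shares per exon length. The edgeR test was also run on simulated data, whose changes were larger than the Hoil1 and Il4ra differences given for the 10 genes. Smaller changes were not simulated, so the simulation gave no measure of power for them. The 10 genes, the lists (plasma cell, B cell, light chain, class switch, IgA-inducing signals and gut homing, IgG1 and IgE switch signals, Fc receptors, Pigr regulators, epithelial, endothelial, stromal, and T cell and myeloid markers) and the tests were chosen with earlier results of these data known. Named list genes were at most 4 past the threshold by adjusted p, or else the 2 of highest CPM, and correlated genes the 5 of highest r. Other genes were named after their values were seen.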

Additional observations from a re-analysis of the deposited data

How the results depend on the processing

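Between fractions 9 members were called under each alternative run, a count that the sort and the filter largely fix. Within fractions, the number of members past the threshold rose from 0 under DESeq2 and edgeR's likelihood ratio test: to 1 and 1 for Hoil1, 2 and 2 for Il4ra and 2 and 1 for the interaction in CD45+ cells, and to 1 and 1 for the interaction in CD45- cells. With 1 library left out it was 0 for the 3 comparisons in CD45+ cells and 0 to 1 for the interaction in CD45- cells (1 without Hoil1+/+ Il4ra dIEC replicate 3). Differences near 0 turned. For Hoil1 in CD45+ cells, the log2 fold change of Igha was 0.0137 over all libraries, 0.0457 with library totals and −0.65 to 0.27 with 1 library left out, and that of Ighm −0.63 to 0.13. For Hoil1 in CD45- cells, Pigr was at −0.10 over all libraries and at −0.10 to 0.20 with 1 left out, and Jchain at −0.22 to 1.29. For Il4ra in CD45+ cells Ighg2b was at −0.49 to 1.39, and the Pigr interaction in CD45- cells at −2.75 to −2.16.

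Of the shares, the Hoil1 difference of Igha in CD45+ cells was −0.14 as a log2 ratio to the other heavy-chain genes, and that of IgG in CD45- cells 0.0820. The Il4ra difference of Ighm over all libraries was 0.991 percentage points (p = 0.113, permutation test). With 1 library left out, the Il4ra differences were −2.92 to −1.59 for Igha, 0.959 to 1.64 for Ighm and 0.478 to 1.11 for IgG. The Hoil1 differences in CD45+ cells were −0.040 to 1.24 for Igha and −0.470 to 0.110 for IgG, and in CD45- cells −0.084 to 0.858 for Igha, −0.785 to 0.069 for Ighm and −0.111 to 0.027 for IgG. Between fractions Igha was at −1.42 to −0.527 (p = 0.0132, permutation test, without CD45- Hoil1+/+ Il4ra dIEC replicate 3) and Ighm at −0.023 to 0.577. The causes were not tested. No paired analysis was possible because no label ties libraries to a mouse or gives groups shared replicate numbers. Groups of 2 to 3 libraries and CD45- libraries with as few as 1609 heavy-chain counts limit what can be detected.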

Other observations

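Most light chain constant counts were of the kappa gene. Igkc took 95.7% to 99.3% of the light chain constant counts (Igkc, Iglc1, Iglc2 and Iglc3) in the CD45+ libraries and 88.0% to 100% in the CD45- libraries, where the lowest share was in Hoil1-/- Il4ra dIEC replicate 1. In that library Iglc3 was at 70.9 CPM beside 575 CPM of Igkc, while in the other 10 CD45- libraries of the study's list Iglc3 was at 0 to 12.2 CPM. These genes were named after their values were seen, and the differences were not tested.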
